A study of Mus musculus with 48 samples.

Results

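Cadherins and protocadherins are calcium-dependent adhesion proteins of the cell surface, and the genes described here are the classical cadherins and the non-clustered protocadherins of 16 populations of mouse hippocampal neurons. Members were all genes whose symbol is Cdh or Pcdh followed by a number, with an x allowed at the end of a Pcdh symbol. The rule found 35 of the 37620 genes in the count table, 23 with a Cdh symbol and 12 with a Pcdh symbol. It used names alone and no measured value.

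Classical cadherins bind a like molecule on the opposite membrane and connect through catenins to the actin cytoskeleton. Type I cadherins such as Cdh2 (N-cadherin) and Cdh4 (R-cadherin) and the larger type II group differ in how the outermost repeat binds, and type II cadherins fall into groups that bind within the group, one of which is Cdh6, Cdh9 and Cdh10. Cdh13 (T-cadherin) is held by a lipid anchor and has no cytoplasmic part. The delta-protocadherins adhere more weakly and signal through their own cytoplasmic domains. In the hippocampus Cdh9 is known for its role at the contacts of dentate mossy fibres with CA3 cells, and PCDH19 is known as a human epilepsy gene.

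The series sequenced 48 libraries from mouse cells, 3 per population. Of the CA1 pyramidal cells, 3 populations followed the long axis (dorsal, intermediate and ventral), 2 the transverse axis (proximal and distal) and 2 the depth of the cell layer (superficial and deep). Another 3 were defined by their target: the postsubiculum for dorsal cells, and the amygdala or the nucleus accumbens for ventral cells. CA3 pyramidal cells and granule cells of the dentate gyrus (DG) were each sampled dorsally and ventrally, and the last populations were parvalbumin (PV) and somatostatin (SST) interneurons. All were fluorescent neurons sorted by hand from microdissected slices. The labels give no genotype, fluorescent line, age, sex or treatment for any population, and name no agent that the groups share.

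Levels are given as CPM, gene counts scaled to the size of the library, with TMM factors over all 48 libraries, with the libraries numbered 1 to 3 as in the count table, and means are ± SD over 3 libraries. CPM do not correct for gene length, so levels are compared between populations for 1 gene. The abundance of genes is compared only in the deposited FPKM, which are per length. Where CPM of several genes stand side by side or against a threshold, they do not rank the genes. A gene is said to be called where the edgeR quasi-likelihood test gave a Benjamini-Hochberg adjusted p under 0.05 over all genes tested. Every adjusted p below is from that test unless DESeq2 is named. Whether the libraries of 1 population stem from different mice is not stated in the labels, and the p-values therefore measure no more than the spread between these samples. In bulk RNA, fewer cells of a type and less RNA per cell cannot be told apart.

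Gene reads ran from 5.12 to 31.98 M per library, and 3 reads corresponded to between 0.0899 and 0.55 CPM. Intermediate CA1 (6.7 to 10.39 M), ventral CA1 (5.12 to 8.35 M) and dorsal DG (6.78 to 7.85 M) were the shallowest populations. The labelled regions matched their markers: the summed level of 5 CA1 pyramidal markers lay between 499.6 and 2331 CPM in the 30 CA1 libraries and at most at 154.2 CPM elsewhere, although Pou3f1 among them had no read in any population. Sums of 5 CA3 markers were 554.7 to 1425 CPM in CA3, and of 5 DG granule cell markers 1744 to 2547 CPM in DG. Some markers of GABAergic cells (Gad1, Gad2, Slc32a1, Dlx1 and Lhx6) also had reads in pyramidal cells. Their sum was 4445 to 6433 CPM in the interneurons, 157.6 to 745.7 CPM in deep CA1 and 42.97 to 107.1 CPM in DG, while proximal CA1 library 1 stood at 145.9 CPM beside 2.37 and 1.95 CPM in the other proximal libraries.

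Of the 35 members, 29 reached a mean of 1 CPM in at least 1 population and 24 reached 10 CPM. The other 6 stayed below 1 CPM everywhere: Cdh3, which had no read in any library, Cdh5, the cadherin of vascular endothelium, Cdh16, Cdh17, Cdh19 and Cdh26. At or above 10 CPM in all 16 populations were 10 members: Cdh2, Cdh8, Cdh11, Cdh12, Pcdh1, Pcdh7, Pcdh9, Pcdh10, Pcdh17 and Pcdh19. Per length, the highest median over the 16 population means was that of Pcdh1 at 137 FPKM, followed by Cdh11 at 51.2 FPKM, Pcdh9 at 46.9 FPKM, Pcdh19 at 33.7 FPKM and Cdh2 at 31.6 FPKM. The number of members at 10 CPM or more was lowest, at 13, in dorsal, proximal, distal and superficial CA1, was 19 in ventral CA1, and reached 20 in each of the interneuron populations. The share of all genes at 10 CPM was not computed, so these counts do not set the members apart from other genes.

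**Figure D1:**
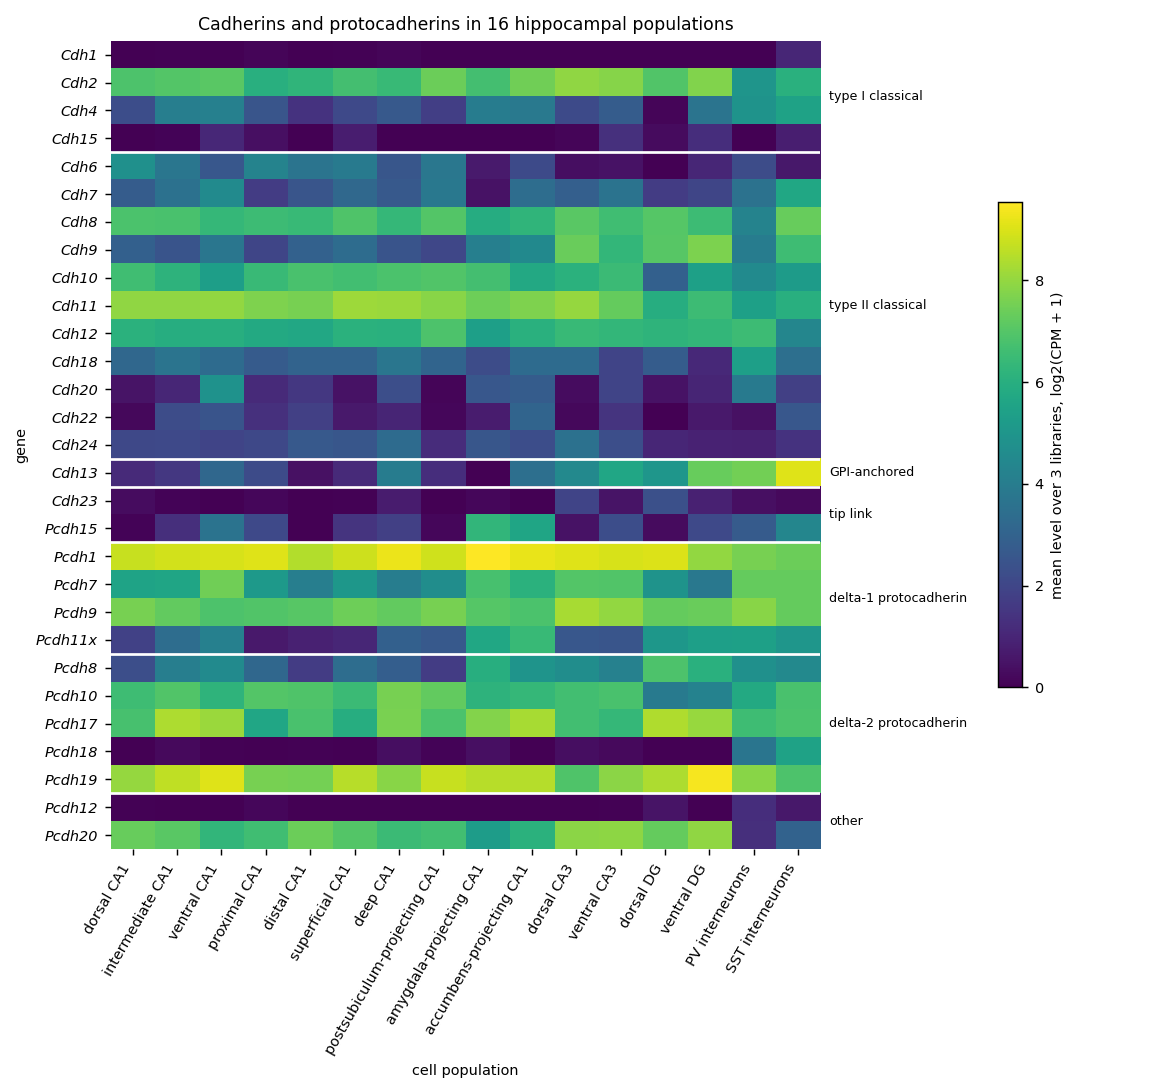
Mean level over 3 libraries of the 29 members that reached 1 CPM in some population, as log2(CPM + 1) by colour, with genes in rows grouped by class and the 16 populations in columns. Pcdh1 is bright in every column, while Pcdh18 and Cdh13 are brightest in the interneurons and Pcdh20 is dark there.

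Among type I cadherins, Cdh2 was expressed throughout, from 30.3 ± 2.81 CPM in PV interneurons to 249 ± 22.0 CPM in dorsal CA3. Cdh4 ran from 0.0838 ± 0.145 CPM in dorsal DG to 43.7 ± 16.2 CPM in SST interneurons. Cdh1 (E-cadherin) and Cdh15 (M-cadherin) barely passed 1 CPM, with their highest means at 1.03 CPM in SST interneurons and 1.49 CPM in ventral CA3. Each had at least 1 population without a read.

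The type II cadherins divided into broadly expressed genes and genes with a restricted pattern. Cdh11 ran from 41.6 ± 22.3 CPM in PV interneurons to 279 ± 33.1 CPM in superficial CA1, and Cdh12 from 19.7 ± 18.8 CPM in SST interneurons to 115 ± 23.8 CPM in postsubiculum-projecting CA1. For Cdh8 the lowest mean was 18.1 ± 10.9 CPM in PV interneurons and the highest 160 ± 61.0 CPM in SST interneurons. These genes were thus least abundant in an interneuron population.

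Cdh10 ran from 6.52 ± 10.1 CPM in dorsal DG, where library 2 held 18.2 CPM and the others 0.126 and 1.23 CPM, to 122 ± 45.9 CPM in postsubiculum-projecting CA1. Cdh9 ran from 2.98 ± 2.87 CPM in proximal CA1 to 201 ± 24.1 CPM in ventral DG. Cdh6 was highest in dorsal CA1 at 26.4 ± 5.97 CPM and had no read in dorsal DG. These 3 members of 1 binding group had their highest means in different populations, those of Cdh6 and Cdh10 both among dorsal CA1 cells.

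The remaining type II cadherins were low in most cells. Cdh7 ran from 0.381 ± 0.570 CPM in amygdala-projecting CA1 to 50.6 ± 35.7 CPM in SST interneurons, and Cdh18 from 1.14 ± 0.761 CPM in ventral DG to 40.8 ± 3.50 CPM in PV interneurons. Cdh20 was at 0.0948 ± 0.0385 CPM in postsubiculum-projecting CA1 and at 27.8 ± 5.30 CPM in ventral CA1. Cdh22 ran from no read in dorsal DG to 7.35 ± 5.70 CPM in accumbens-projecting CA1. Cdh24 ran from 0.833 ± 1.38 CPM in PV interneurons to 10.8 ± 7.03 CPM in dorsal CA3. Their highest means, 2.72 and 4.42 FPKM, lay below those of Cdh7, Cdh18 and Cdh20, at 14.2, 21.0 and 7.81 FPKM.

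Cdh13 ran from no read in amygdala-projecting CA1 to 539 ± 95.2 CPM in SST interneurons. Cdh23 and Pcdh15, which form the tip links of sensory hair cells, differed from each other: Cdh23 had no read in ventral CA1 and 4.04 ± 2.34 CPM in dorsal DG, while Pcdh15 had no read in distal CA1 and 75.5 ± 18.9 CPM in amygdala-projecting CA1.

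Of the delta-1 protocadherins, Pcdh1 and Pcdh9 had the smallest ratio of highest to lowest mean. Pcdh1 ran from 169 ± 39.5 CPM in SST interneurons to 741 ± 123 CPM in amygdala-projecting CA1, and Pcdh9 from 113 ± 26.5 CPM in accumbens-projecting CA1 to 313 ± 1.83 CPM in dorsal CA3. Pcdh7 ran from 13.2 ± 4.33 CPM in ventral DG to 175 ± 8.05 CPM in ventral CA1. Pcdh11x ran from 0.555 ± 0.288 CPM in proximal CA1 to 85.0 ± 81.2 CPM in accumbens-projecting CA1, where its libraries held 58.0, 176 and 20.7 CPM.

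Among the delta-2 protocadherins, Pcdh19 ran from 117 ± 3.76 CPM in SST interneurons to 683 ± 112 CPM in ventral DG, and Pcdh17 from 48.5 ± 26.6 CPM in proximal CA1 to 337 ± 58.9 CPM in dorsal DG. Pcdh10 was lowest in dorsal DG at 14.2 ± 2.24 CPM and highest in deep CA1 at 190 ± 13.5 CPM. Pcdh8, whose product arcadlin is known to be induced by neuronal activity, ran from 2.23 ± 1.62 CPM in postsubiculum-projecting CA1 to 117 ± 26.3 CPM in dorsal DG. Pcdh18 had no read in superficial CA1 and 44.4 ± 27.2 CPM in SST interneurons. Outside these classes, Pcdh12 peaked at 1.37 ± 0.633 CPM in PV interneurons with no read in 9 of the other populations, and Pcdh20 ran from 1.43 ± 1.63 CPM in PV interneurons to 250 ± 26.4 CPM in ventral DG.

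These tops were often shared. Every library of the highest population lay above every library of the next one for 9 of the 29 members. Both populations were picked by these same values, and the share over all genes was not computed. In the deposited FPKM the same population was highest for 25 of the 29, and with another scaling of the counts for 28.

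Members that lie side by side on a chromosome had a median likeness near that of all pairs of members. Taking the order of protein-coding genes in RefSeq, 14 pairs of members had at most 2 other protein-coding genes between them, and 9 of these pairs had both genes at 10 CPM or more in some population. Over the 16 population means of log2(CPM + 1), Pearson's r of these 9 pairs had a median of 0.035, ran from -0.872 to 0.528, and is given as a description with no test. Over all 276 pairs of the 24 members the median was 0.015. On chromosome 15, Cdh6, Cdh9, Cdh10 and Cdh12 follow each other with no protein-coding gene between them, and Cdh18 comes next after Acot10.

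The lowest value of all pairs belonged to the neighbours Cdh6 and Cdh9, which were chosen for the next comparison after their values were seen. Cdh6 was at 0.267, 0.365, 0 and 1.05 CPM in dorsal CA3, ventral CA3, dorsal DG and ventral DG, where Cdh9 was at 162, 79.4, 133 and 201 CPM. In dorsal CA1 Cdh6 was at 26.4 CPM and Cdh9 at 6.6 CPM. The highest values were those of Cdh10 with Pcdh10 (r = 0.783), Pcdh11x with Pcdh8 (0.765), Cdh10 with Cdh11 (0.764), Cdh2 with Pcdh20 (0.762) and Cdh11 with Cdh24 (0.730), each over 16 population means that share depth and library preparation.

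The 250 bases before the RefSeq start of Cdh6 and of Cdh9 are shown because these neighbours had opposite patterns across regions. RefSeq promoters were matched for 22 of the 35 members, in build GRCm38.p6, which is not the build of the counts. Capitals mark the letters CCAAT or GGGCGG on either strand, and the first is also known as the CCAAT box and the second as the GC box. Sequences run 5′ to 3′ on the strand of the gene.
Cdh6 (chr15:13173676-13173925, minus strand): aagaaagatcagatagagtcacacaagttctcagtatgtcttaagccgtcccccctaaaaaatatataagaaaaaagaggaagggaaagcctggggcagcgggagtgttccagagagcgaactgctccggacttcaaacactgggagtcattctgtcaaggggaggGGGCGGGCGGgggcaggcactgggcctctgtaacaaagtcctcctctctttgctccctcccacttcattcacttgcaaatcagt
Cdh9 (chr15:16728665-16728914, plus strand): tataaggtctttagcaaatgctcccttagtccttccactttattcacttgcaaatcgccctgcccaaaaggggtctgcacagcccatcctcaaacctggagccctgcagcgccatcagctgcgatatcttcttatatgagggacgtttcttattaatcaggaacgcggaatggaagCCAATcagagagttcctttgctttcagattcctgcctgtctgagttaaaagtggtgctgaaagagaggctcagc
The Cdh6 stretch held 2 overlapping GGGCGG matches and no CCAAT, and the Cdh9 stretch 1 CCAAT and no GGGCGG. The longest run of letters the stretches shared was attcacttgcaaatc, 15 bases long, which began 18 bases before the start of Cdh6 and 209 before that of Cdh9. It was looked for after the sequences were seen, and 2 of the 32851 mouse promoters of the same length, these 2, held it on either strand. Neither held TATAAA, nor CAGATG, nor TGACG on either strand. Of those promoters, 33.8% held CCAAT, 32.7% GGGCGG, 12.4% TATAAA, 14.4% CAGATG and 17.8% TGACG, so the matches are common ones. GC content was 51.2% for Cdh6 and 48% for Cdh9, beside a median of 52.4% over all these promoters. A match of letters is a description and was not tied to any factor.

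Along the long axis of CA1, from dorsal to ventral, the members divided into a larger ventral and a smaller dorsal group. Of 24 members tested, 10 were called higher in ventral CA1, beside 7.95% of the 12149 genes tested, and 4 were called higher in dorsal CA1, beside 7.17%. The median log2 difference, dorsal minus ventral, was -0.62 over the tested members and -0.01 over all genes. The ventral group held Cdh4, Cdh7, Cdh20 and Cdh22 of the classical cadherins, Cdh13, Pcdh15, Pcdh7 and the delta-2 protocadherins Pcdh8, Pcdh17 and Pcdh19. The dorsal group held the type II cadherins Cdh6 and Cdh10, with Pcdh9 and Pcdh20. Ventral means of the 10 ran from 4.54 CPM for Cdh22 to 543 CPM for Pcdh19.

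Cdh20 had 0.992, 0.135 and 0.136 CPM in the dorsal libraries, 0.289, 1.59 and 1.15 CPM in the intermediate and 27.8, 22.6 and 33.1 CPM in the ventral. It was 67.0-fold higher in ventral than in dorsal CA1 (log2 difference -6.07, SE 0.71, adjusted p = 5.12e-06). It was also called between intermediate and ventral cells (log2 difference -4.74, SE 0.68, adjusted p = 0.000256) and not between dorsal and intermediate cells. The ventral libraries thus lay apart from the other 6.

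Pcdh15 had 0.0793, 0.0674 and 0.0455 CPM in dorsal CA1, which is 5 reads in all, 0.289, 3.83 and 0.115 CPM in intermediate CA1 and 12.1, 10.8 and 11.3 CPM in ventral CA1. The fitted log2 difference between the poles was -7.32 (SE 1.09, adjusted p = 8.14e-05). Intermediate library 2 stood apart from the other intermediate libraries. Pcdh15 is also known from oligodendrocyte precursors. Of their 4 markers, Pdgfra, Olig1 and Olig2 had no read in ventral CA1, where Cspg4 was at 0, 0.367 and 1.62 CPM. None of them had a read in dorsal CA1, and the part of such cells in the ventral Pcdh15 level was not tested.

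Pcdh8 had 3.02, 5.73 and 2.87 CPM in dorsal, 12, 22.3 and 13.4 CPM in intermediate and 26.2, 20.4 and 21.0 CPM in ventral libraries. It was 5.99-fold higher in ventral than in dorsal CA1 (adjusted p = 9.8e-05) and 4.18-fold higher in intermediate than in dorsal CA1 (adjusted p = 0.00278). No intermediate or ventral library fell to the dorsal level, while intermediate and ventral libraries overlapped.

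Cdh4 also rose at the first step, with 7.54, 3 and 0.955 CPM dorsally, 11.3, 18.9 and 17.2 CPM in intermediate and 17.7, 11.6 and 20.6 CPM in ventral cells. The fold between the poles was 4.47 (log2 difference -2.16, SE 0.54, adjusted p = 0.00838). Cdh7 had 7.26, 4.65 and 5.78 CPM dorsally and 36.8, 20.2 and 11.8 CPM ventrally, a 4.01-fold difference (adjusted p = 0.00488) with a wide ventral spread.

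Pcdh19 changed at each step. Its libraries held 299, 262 and 218 CPM in dorsal, 365, 401 and 417 CPM in intermediate and 549, 531 and 549 CPM in ventral CA1, with no overlap between neighbours. The fold was 1.55 from dorsal to intermediate (adjusted p = 0.00163), 1.40 from intermediate to ventral (adjusted p = 0.0131) and 2.16 between the poles (adjusted p = 7.85e-07). Of the 24 members tested, it was the 1 called in the same direction at both steps.

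Pcdh7 stayed level and then rose: 39.6, 55.9 and 39.2 CPM in dorsal, 25.6, 47.4 and 70.6 CPM in intermediate and 171, 169 and 184 CPM in ventral CA1. It was 3.68-fold higher in ventral than in intermediate cells (adjusted p = 0.000211). Pcdh17 changed earlier along the axis, with 127, 92.9 and 101 CPM in dorsal, 192, 443 and 338 CPM in intermediate and 373, 270 and 178 CPM in ventral cells. It was 3.09-fold higher in intermediate than in dorsal cells (adjusted p = 0.0375).

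On the dorsal side, Cdh6 had 29.5, 30.1 and 19.5 CPM in dorsal, 15.2, 6.54 and 15.5 CPM in intermediate and 1.90, 11.4 and 1.62 CPM in ventral libraries. It was 5.35-fold higher in dorsal than in ventral CA1 (log2 difference 2.42, SE 0.59, adjusted p = 0.00775). Ventral library 2 stood apart from the others but below every dorsal library.

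Cdh10 had 110, 119 and 61.0 CPM dorsally, 69.6, 73.9 and 70.7 CPM in intermediate and 49.5, 40.5 and 30.5 CPM in ventral cells, a 2.33-fold difference between the poles (adjusted p = 0.000847). Pcdh20 had 158, 160 and 159 CPM dorsally, 107, 199 and 99.1 CPM in intermediate and 92.7, 59.8 and 79.9 CPM in ventral cells, a 1.99-fold difference (adjusted p = 0.00309). For both, every dorsal library lay above every ventral one. Pcdh9, 1.61-fold higher in dorsal cells (adjusted p = 0.00118), went from 191 ± 21.6 to 115 ± 12.2 CPM.

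**Figure D2:**
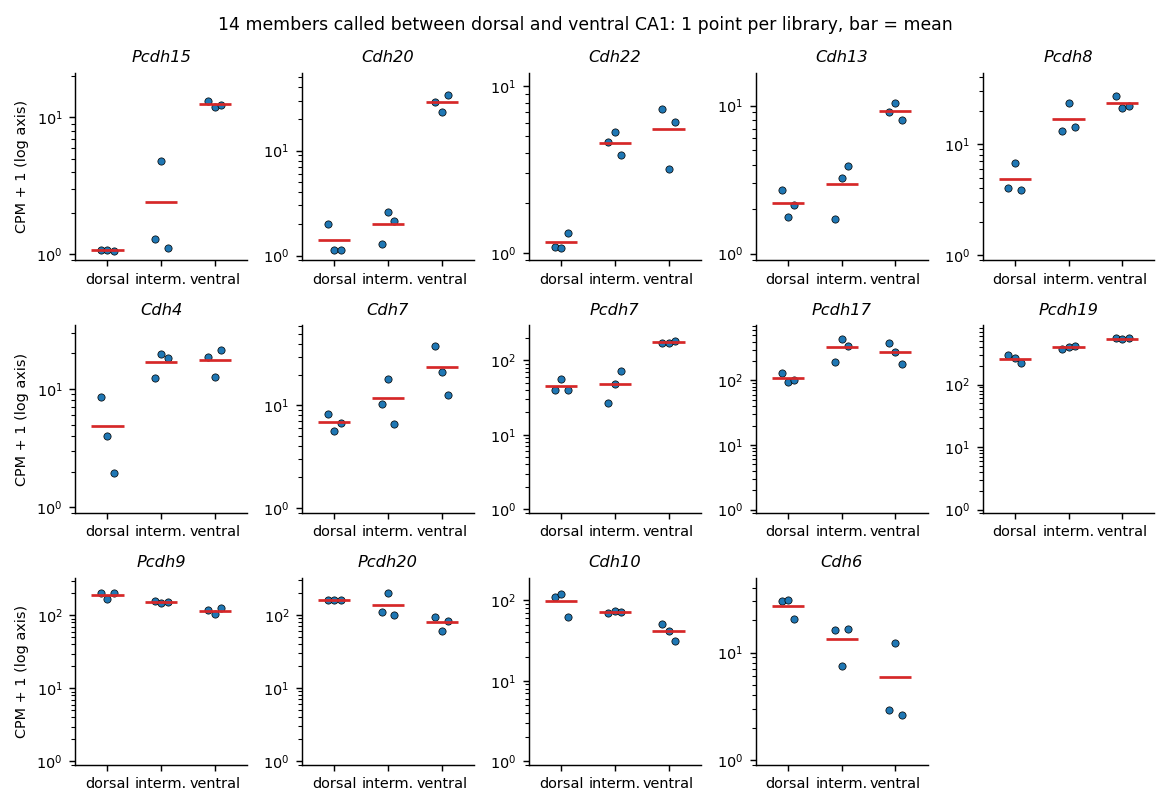
Level in each library, as CPM + 1 on a log axis, of the 14 members called between dorsal and ventral CA1, for dorsal, intermediate (interm.) and ventral cells, with bars at the means. Cdh20, Pcdh15 and Pcdh7 lie highest in the ventral libraries, Pcdh8, Cdh4 and Cdh22 lie above the dorsal level already in the intermediate ones, and Pcdh19 steps from 260 to 394 and 543 CPM.

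By step, 6 members were called between dorsal and intermediate CA1, all higher in intermediate cells (Cdh4, Cdh22, Pcdh8, Pcdh15, Pcdh17 and Pcdh19), beside 3.24% of all genes called in that direction and 1.69% in the other. From intermediate to ventral CA1, 3 were called higher in ventral cells (Cdh20, Pcdh7 and Pcdh19), beside 1.91%, and 3 higher in intermediate cells (Cdh10, Pcdh10 and Pcdh20), beside 3.12%. Pcdh10 peaked in the middle, with 112, 88.7 and 80.3 CPM dorsally, 124, 125 and 116 CPM in intermediate and 75.2, 74.4 and 68.4 CPM in ventral cells. Its 1.66-fold difference between intermediate and ventral cells was called (adjusted p = 0.00821), while that between dorsal and intermediate cells was not.

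Between the poles Pcdh17 lost its call without dorsal library 1, 2 or 3 or ventral library 1 or 2 (adjusted p up to 0.123), and Cdh4, Cdh6, Cdh7, Cdh10, Cdh13, Cdh22 and Pcdh20 were not called in 1 fit to all 48 libraries, in which the spread is estimated over all populations. In the first step Cdh4 lost its call without dorsal library 2 or 3 or intermediate library 2 or 3 (adjusted p up to 0.12), Pcdh15 without any dorsal library or intermediate library 2 (up to 0.607), and Pcdh17 without any dorsal library, intermediate library 3 or ventral library 2 (up to 0.159). In the second, Pcdh19 lost it without intermediate library 1 (0.0785), Pcdh20 without any dorsal library, intermediate library 2 or ventral library 2 or 3 (up to 0.284), and Cdh10 without any intermediate library, dorsal library 1 or 2 or ventral library 2 or 3 (up to 0.176). With no filter Pcdh17 was not called between the poles or in the first step (0.105 and 0.118), and with RLE scaling Cdh10 was not in the second (0.0521). With the replicate number as a block Pcdh17 was not called between the poles or in the first step (0.0658 and 0.086). Nor were Pcdh15 in the first step (0.0633) and Pcdh20 in the second (0.0997). The fit to all 48 libraries kept only Pcdh17 of the first step and none of the second. The GABAergic marker sum was 0.0397 to 1.5 CPM in dorsal and 14.7 to 18.9 CPM in ventral CA1, where Lhx6 had no read, and 6 mural and fibroblast markers summed to 5.50 to 9.63 and 258 to 432 CPM, of which Dcn alone averaged 1.12 and 350 CPM and Col1a2 had no ventral read. Cdh13 (1.21 ± 0.469 dorsally and 8.16 ± 1.15 CPM ventrally, adjusted p = 0.0087), Cdh4 and Cdh7 are all more abundant in SST interneurons, and the part of such cells in the ventral levels was not tested.

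Across the transverse axis of CA1, 1 of 22 members tested was called. Pcdh1 had 577, 446 and 589 CPM in proximal libraries and 372, 340 and 334 CPM in distal ones, and was 1.57-fold higher in proximal CA1 (log2 difference 0.65, SE 0.13, adjusted p = 0.0314). Of all genes tested, 0.818% were called higher in proximal cells and 0.244% in distal cells. Pcdh1 lost its call without proximal library 1 or 3 or any 1 distal library (adjusted p up to 0.148) and in the fit to all 48 libraries (0.0669). Proximal library 1, which held Pvalb at 81.3 CPM, also held the highest proximal level of Cdh13 at 10.2 CPM, beside 0 and 0.27 CPM in the others, and of Pcdh15 at 9.51 CPM, beside 0.0494 and 0.33 CPM.

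Across the cell layer, 4 members were called higher in deep CA1 and 1 in superficial CA1, of 25 tested, beside 1.6% and 0.886% of all genes. Of the 5, 3 were delta-2 protocadherins, with Pcdh10 and Pcdh17 higher in deep and Pcdh19 higher in superficial cells. Classes were not compared in a test. The medians over tested members and all genes were -0.21 and -0.03 (log2, superficial minus deep).

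Pcdh17 had 66.8, 48.7 and 66.4 CPM in superficial and 230, 170 and 189 CPM in deep libraries. It was 3.32-fold higher in deep cells (log2 difference -1.73, SE 0.18, adjusted p = 0.000608), and every alternative kept the call. Pcdh10 had 101, 83.9 and 80.7 CPM against 205, 183 and 180 CPM, 2.20-fold higher in deep cells (adjusted p = 0.00261). In both genes the groups lay well apart.

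Pcdh1 had 463, 424 and 444 CPM in superficial and 589, 579 and 662 CPM in deep cells, a 1.41-fold difference (adjusted p = 0.0133). Pcdh19 went the other way, with 386, 394 and 307 CPM in superficial and 190, 219 and 269 CPM in deep cells, a 1.56-fold difference (adjusted p = 0.0378). Their groups did not overlap, but the margins were narrow for Pcdh19.

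Cdh13 had 1.27, 1.54 and 0.839 CPM in superficial and 30.3, 3.10 and 11.1 CPM in deep libraries (log2 difference -3.64, SE 0.80, adjusted p = 0.0341). The GABAergic marker sum moved with these groups: 14.8, 15.8 and 144 CPM in superficial libraries 1, 2 and 3 and 158, 472 and 746 CPM in deep libraries 1, 2 and 3, with Sst at 117 CPM in deep library 1 and at most 0.815 CPM in the other 5. All 5 GABAergic markers had reads in both groups, and their part in the deep Cdh13 level was not tested. The mural and fibroblast sum was 4.36 to 6.86 CPM in superficial and 41.7 to 115 CPM in deep libraries. Cdh13 lost its call without any 1 superficial library or deep library 1 or 3 (adjusted p up to 0.173), Pcdh1 without any 1 superficial library (up to 0.112), and Pcdh19 without superficial library 1 or 2 or deep library 1 or 2 (up to 0.211). In the fit to all 48 libraries only Pcdh17 of the 5 was called, and with the replicate number as a block Cdh13 was not called (0.0671).

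**Figure D3:**
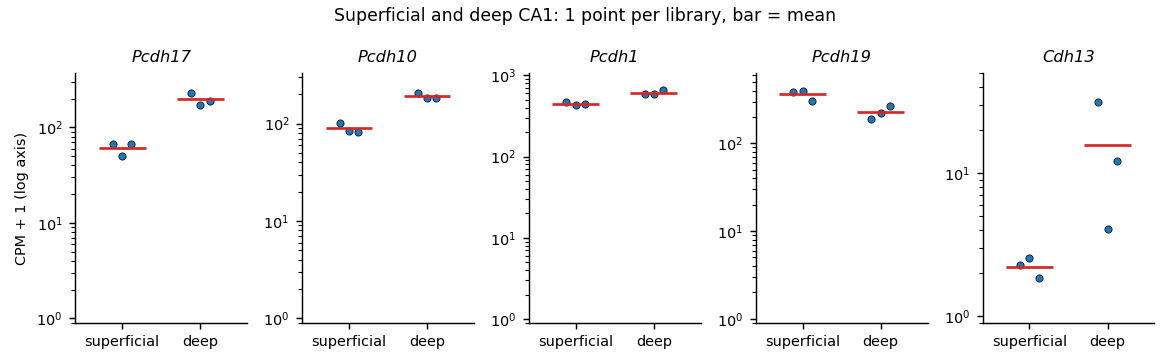
Level in each library, as CPM + 1 on a log axis, of the 5 members called between superficial and deep CA1, with bars at the means. Pcdh17 and Pcdh10 lie higher in all 3 deep libraries, Pcdh19 lies lower, and the deep Cdh13 values spread from 3.10 to 30.3 CPM.

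Between amygdala-projecting and accumbens-projecting ventral CA1 cells, none of the 24 members tested was called by edgeR, beside 0.0% and 0.0231% of all genes in those directions. At an unadjusted p under 0.05 there were 5 members, and the share of all genes at that threshold is not given here. Pcdh15 had 95.5, 73.3 and 57.8 CPM in amygdala-projecting and 41.3, 47.3 and 53.8 CPM in accumbens-projecting libraries, and was not called (adjusted p = 0.587). Both projection groups lay above the 10.8 to 12.1 CPM of ventral CA1, with no test of that difference made. Of 4 oligodendrocyte precursor markers, Pdgfra, Olig1 and Olig2 had no read in either projection group, and Cspg4 made up the sums of 0.0517 to 19.4 CPM in amygdala-projecting and 7.91 to 28.5 CPM in accumbens-projecting cells. Of 6 endothelial markers, which summed to 53 to 101 CPM in amygdala-projecting, 12.2 to 60.2 CPM in accumbens-projecting and 0.379 to 5.08 CPM in ventral CA1 cells, Kdr averaged 65.1, 35.9 and 1.12 CPM and Cldn5 had no read. Their part in the Pcdh15 levels was not tested.

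Cdh13 had no read in any amygdala-projecting library and 1.40, 26.9 and 2.57 CPM in the accumbens-projecting ones (adjusted p = 0.157 in edgeR). Cdh7 had 0.0529, 1.04 and 0.0517 CPM against 19.5, 4.70 and 4.34 CPM (adjusted p = 0.318 in edgeR). Both were called with no filter on low counts (adjusted p = 9.9e-05 and 0.00378), by DESeq2 (3.86e-06 and 0.00175) and in the fit to all 48 libraries (0.00803 and 0.00825). The call on these genes thus depended on the setting. The GABAergic marker sum was 0.872, 0.734 and 74.2 CPM in accumbens-projecting libraries 1, 2 and 3 and 0.258 to 0.594 CPM in the amygdala-projecting ones, and its part was not tested.

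Postsubiculum-projecting cells were compared with dorsal CA1 cells, and 3 of 21 members were called higher and 1 lower, beside 5.24% and 5.58% of all genes. Pcdh19 had 493, 389 and 377 CPM in projecting and 299, 262 and 218 CPM in dorsal cells, a 1.64-fold difference (adjusted p = 0.01). Pcdh10 had 141, 146 and 167 CPM against 112, 88.7 and 80.3 CPM, also 1.64-fold higher (adjusted p = 0.0189). Cdh12 was 1.72-fold higher, with 142, 105 and 97.7 CPM against 65.7, 85.3 and 52.2 CPM (adjusted p = 0.0445).

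Pcdh20 was lower, with 89.8, 116 and 90.6 CPM in projecting cells beside 158, 160 and 159 CPM in dorsal cells (1.58-fold, adjusted p = 0.0181). All 4 differences separated the libraries of the groups. All 4 also lost their calls without dorsal library 2 or dorsal library 3 and in the fit to all 48 libraries. Pcdh20 lost it without dorsal library 1 too (adjusted p up to 0.0838 without 1 library), Pcdh10 without projecting library 3 (up to 0.106), and Cdh12 without any 1 library of the comparison (up to 0.169), while Pcdh19 reached 0.0552. The GABAergic marker sum was 0.455, 67.3 and 0.622 CPM in projecting libraries 1, 2 and 3, where Lhx6 had no read. In dorsal CA1 it was at most 1.5 CPM, and its part in these differences was not tested. The dorsal CA1 libraries are the same as in the long-axis comparison.

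In CA3 the long axis gave 2 members higher dorsally and 2 ventrally of 26 tested, beside 2.5% and 2.48% of all genes. Cdh9 had 156, 177 and 154 CPM in dorsal and 87.8, 70.8 and 79.6 CPM in ventral CA3, 2.07-fold higher dorsally (adjusted p = 0.00489). Cdh11 had 256, 253 and 263 CPM against 154, 148 and 166 CPM, 1.67-fold higher dorsally (adjusted p = 0.043). The libraries of each were tight.

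Pcdh19 had 146, 141 and 72.6 CPM in dorsal and 286, 265 and 146 CPM in ventral CA3 (1.91-fold, adjusted p = 0.0189), with the lowest ventral library at the level of the highest dorsal one. Pcdh15, at 0.37 ± 0.468 and 3.80 ± 2.40 CPM, was the other member called higher ventrally (adjusted p = 0.0316). Cdh9 kept its call in every other setting than the fit to all 48 libraries. Cdh11 lost it without any 1 CA3 library, and also without any of 6 CA1 or DG libraries of the same fit (adjusted p up to 0.178). Pcdh19 lost it without dorsal CA3 library 3 or ventral CA3 library 1 or 2 (up to 0.131), and Pcdh15 without dorsal CA3 library 2 or 3, ventral CA3 library 2 or 3 or any ventral CA1 library (up to 0.184). In the fit to all 48 libraries Cdh9, Cdh11 and Pcdh15 were not called (0.687, 0.104 and 0.129), nor was Pcdh15 with no filter (0.0611).

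In the DG, 9 members were called higher ventrally and 3 dorsally, of 26 tested, beside 10.6% and 8.71% of all genes. The medians were -0.49 over tested members and -0.05 over all genes (log2, dorsal minus ventral). The ventral group held Cdh2, Cdh4, Cdh6, Cdh10, Cdh13, Cdh22, Pcdh15, Pcdh19 and Pcdh20, and the dorsal group Cdh18, Pcdh1 and Pcdh8.

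Cdh4 had 0.251, 0 and 0 CPM in dorsal DG and 14.3, 14.3 and 6.51 CPM in ventral DG (adjusted p = 7.23e-05). With 2 dorsal and 588 ventral reads, the ratio of reads per library size had a 95% exact interval of 36.2 to 1086, which covers counting error only. Cdh13 had 43.6, 26.2 and 22.9 CPM dorsally and 131, 172 and 169 CPM ventrally, 4.96-fold higher (log2 difference -2.31, SE 0.49, adjusted p = 0.00218). The dorsal and ventral granule cells did not overlap in either gene.

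Pcdh19 held 324, 331 and 321 CPM dorsally and 566, 791 and 693 CPM ventrally, 2.05-fold higher (adjusted p = 0.00361). Cdh10 had 0.126, 18.2 and 1.23 CPM against 45.6, 45.4 and 35.2 CPM, 6.34-fold higher ventrally (adjusted p = 0.0231). Dorsal library 2 stood apart from the other dorsal libraries in Cdh10 and still lay below all ventral ones.

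Pcdh1 was higher dorsally, with 411, 574 and 569 CPM against 231, 223 and 300 CPM (2.11-fold, adjusted p = 3.14e-05). Pcdh8 had 131, 86.8 and 133 CPM dorsally and 65.9, 75.9 and 55.4 CPM ventrally (1.83-fold, adjusted p = 0.0455). Cdh6 had no dorsal read and 52 ventral reads, which puts it at least 2.63-fold higher with a floor of 3 reads in each dorsal library, and Cdh22 no dorsal and 28 ventral reads, at least 1.4-fold higher. Both of these levels stayed near or below 1 CPM.

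Cdh4, Cdh6, Pcdh1, Pcdh15 and Pcdh19 kept their calls in every alternative. Cdh10 lost its call without dorsal library 3 or ventral library 1 or 2 (adjusted p up to 0.0675), and Cdh18 without dorsal library 2 or ventral library 1 or 2 (up to 0.0994). Cdh2 lost it without dorsal library 1 or any ventral library (up to 0.105), Cdh22 without any 1 DG library (up to 0.0675), and Pcdh8 without any of 13 single libraries of the fit, all DG libraries but dorsal 2 among them (up to 0.162). In the fit to all 48 libraries Cdh2, Cdh13, Cdh22, Pcdh8 and Pcdh20 were not called (adjusted p = 0.0834, 0.123, 0.0693, 0.324 and 0.314), and with no filter Cdh10, Cdh22 and Pcdh8 were not (0.0745, 0.0726 and 0.0614). Cdh2 was also not called with the replicate number as a block (0.0534). The mural and fibroblast marker sum was 2.45 to 4.15 CPM in dorsal and 77.7 to 113 CPM in ventral DG, of which Dcn averaged 78.8 CPM ventrally, and its part in the ventral levels was not tested.

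The long-axis difference of some members itself differed between regions, tested as an interaction: the log2 difference of dorsal minus ventral in CA1, minus the same in CA3 or DG. Between CA1 and CA3 it differed for 4 members, beside 3.52% of all genes, and between CA1 and DG for 9, beside 9.71%. Pcdh8 was ventral in CA1, from 3.87 to 22.5 CPM, while it was at 24.3 dorsally and 17.1 CPM ventrally in CA3, not called, and higher dorsally in DG (117 and 65.8 CPM). Its interaction was -3.09 with CA3 (SE 0.44, adjusted p = 0.000127) and -3.43 with DG (SE 0.44, adjusted p = 3.2e-05), on the log2 scale. Both comparisons use the same CA1 libraries.

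Pcdh20 was dorsal in CA1 (159 and 77.5 CPM), at 237 and 238 CPM in CA3, and ventral in DG (155 and 250 CPM). The interaction was 1.00 with CA3 (adjusted p = 0.0185) and 1.67 with DG (adjusted p = 0.000131). Cdh10 and Cdh6, dorsal in CA1, were ventral in DG, with interactions of 3.91 (SE 1.04, adjusted p = 0.0249) and 9.56 (SE 2.19, adjusted p = 0.00888). The value for Cdh6 depends on the prior count, since dorsal DG had no read.

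Pcdh17 rose ventrally in CA1, while CA3 held 99.6 dorsally and 80.0 CPM ventrally and DG 337 and 265 CPM. Its interactions were -1.71 with CA3 (adjusted p = 0.00241) and -1.76 with DG (adjusted p = 0.00136). Cdh9 was at 6.60 and 12.4 CPM in dorsal and ventral CA1 beside the dorsal excess in CA3 (-1.97, adjusted p = 0.000586). Cdh4 rose ventrally in CA1 and by a larger factor in DG (4.78, adjusted p = 0.0169).

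The remaining interactions were all with DG. Pcdh7 rose 4.01-fold in ventral CA1 and held 28.8 ± 25.4 CPM in dorsal DG beside 13.2 ± 4.33 CPM in ventral DG (-3.13, adjusted p = 0.00936). Pcdh1, higher dorsally in DG, was at 423 and 492 CPM in dorsal and ventral CA1 (-1.32, adjusted p = 0.000308). Pcdh9, higher dorsally in CA1, was at 153 and 161 CPM in DG (0.75, adjusted p = 0.0421). Pcdh19 was higher ventrally in all 3 regions, and its interactions did not pass the threshold. Pcdh20 with CA3 lost its call without any of 4 single libraries (ventral CA1 2, dorsal CA3 3, ventral CA3 1 or 2, adjusted p up to 0.0661), and Cdh4 with DG without dorsal CA1 library 1 (0.0598). Cdh10 lost it without any of 6 libraries (dorsal CA1 1 or 2, ventral CA1 2 or 3, ventral DG 1 or 2, up to 0.0717), and Pcdh9 without any of 9 (up to 0.122). With no filter on low counts the DG interactions of Pcdh7, Cdh10 and Pcdh9 were not called (adjusted p = 0.0591, 0.0842 and 0.0509), nor was that of Pcdh9 with RLE scaling (0.053). In the fit to all 48 libraries Pcdh8 was the 1 member still called of the 4 with CA3, where Cdh9, Pcdh17 and Pcdh20 had adjusted p = 0.522, 0.0641 and 0.673, and Pcdh20 and Pcdh9 were not called with DG (0.0866 and 0.0656).

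**Figure D4:**
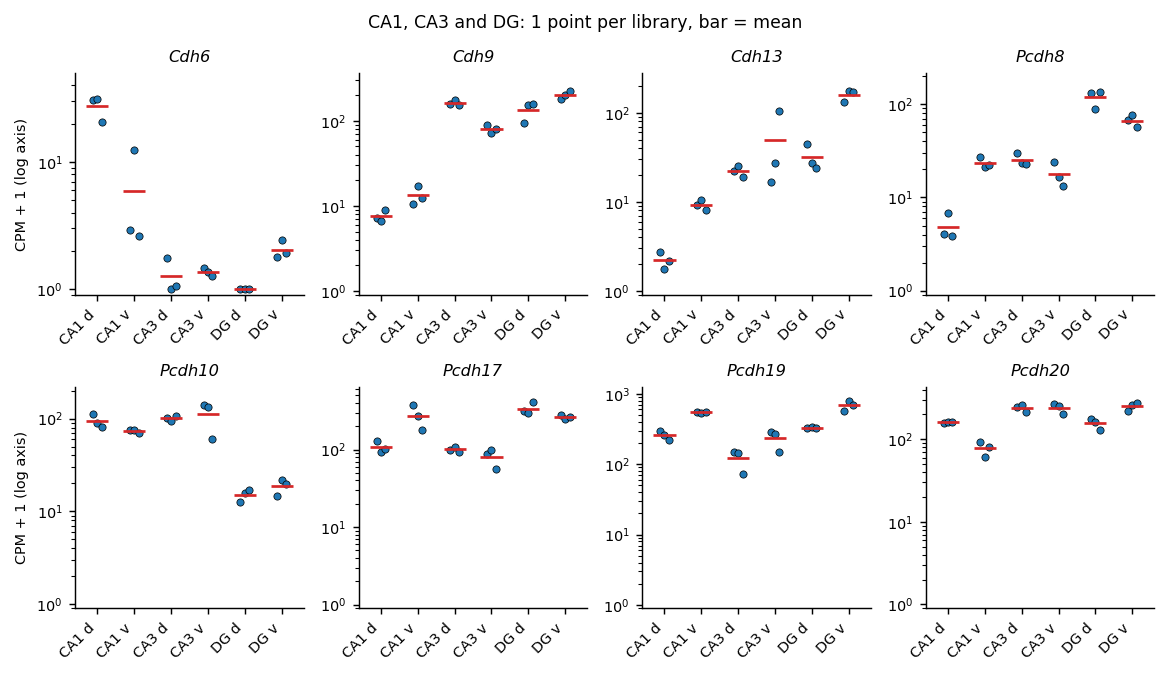
Level in each library, as CPM + 1 on a log axis, of 8 members in dorsal (d) and ventral (v) CA1, CA3 and DG, with bars at the means. Cdh9 is lowest in CA1, Cdh6 stays at or below 1.45 CPM in CA3 and DG, Pcdh10 is lowest in DG, and Pcdh8 and Pcdh20 slope in different directions by region.

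Between regions, averaged over dorsal and ventral cells, CA1 and CA3 differed in 10 of 26 members: 3 were higher in CA1, beside 5.34% of all genes, and 7 in CA3, beside 8.15%. Cdh9 was 12.6-fold higher in CA3 (log2 difference -3.65, SE 0.17, adjusted p = 3.71e-12), with a lowest, median and highest library of 5.69, 8.72 and 16.1 CPM among the 6 of CA1 and of 70.8, 121 and 177 CPM among the 6 of CA3. Cdh6 was 36.0-fold higher in CA1 (log2 difference 5.17, SE 0.77, adjusted p = 7.45e-05), with 1.62, 15.4 and 30.1 CPM in CA1 and 0, 0.318 and 0.75 CPM in CA3, in the same order. These 2 neighbouring genes thus separated all 12 libraries in opposite directions.

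Cdh13 was 10.2-fold higher in CA3 (adjusted p = 9.62e-07), with 0.775, 4.38 and 9.35 CPM in CA1 and 15.6, 22.7 and 103 CPM in CA3. Pcdh20, Pcdh9 and Cdh2 were 2.13-, 1.90- and 1.88-fold higher in CA3 with no overlap (adjusted p = 1.01e-06, 4.15e-06 and 0.000943). Pcdh8 and Cdh23 were also called higher in CA3, and Pcdh17 and Pcdh19 higher in CA1, with overlapping libraries. Pcdh8 was higher in CA3 by the mean of dorsal cells only. Cdh23 lost its call without any of 7 single libraries, all 3 of ventral CA1 among them (adjusted p up to 0.0738), and Cdh23 and Pcdh8 were not called in the fit to all 48 libraries (adjusted p = 0.0754 and 0.0538).

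CA1 and DG differed in 18 of 26 members, 11 higher in CA1, beside 17.4% of all genes, and 7 higher in DG, beside 15.7%. Cdh9 was 18.1-fold higher in DG (adjusted p = 2.24e-13), with 92.7, 167 and 226 CPM as the lowest, median and highest of the 6 DG libraries. Cdh13 was 22.3-fold (adjusted p = 1.12e-08) and Pcdh8 9.37-fold higher in DG (adjusted p = 6.75e-10). Pcdh17, Pcdh20, Pcdh11x and Cdh23 completed the group, with overlap between libraries. Pcdh17 was higher in DG by the mean of dorsal cells only, and Pcdh20 by that of ventral cells only.

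Higher in CA1 without overlap were Pcdh10, 5.23-fold (lowest, median and highest 68.4, 77.8 and 112 CPM against 11.7, 15.4 and 20.7 CPM, adjusted p = 5.25e-09), Cdh11, 3.40-fold (adjusted p = 1.07e-08), Cdh7, 4.51-fold (4.65, 9.52 and 36.8 CPM against 0.754, 2.93 and 4.14 CPM, adjusted p = 0.00165), and Cdh6 (0 to 1.45 CPM in DG, adjusted p = 3.11e-05). Cdh4, Cdh10, Cdh18, Cdh20, Cdh22, Pcdh1 and Pcdh7 were called with overlap between libraries. By the means, ventral DG lay slightly above ventral CA1 in Cdh10, and dorsal DG above dorsal CA1 in Pcdh1. Pcdh1, 1.26-fold, was not called with RLE scaling or by DESeq2 (adjusted p up to 0.0669), Cdh22 not without dorsal CA1 library 3 (0.056), and Cdh20 not without any of 8 single libraries, all 3 of ventral CA1 among them (up to 0.201) nor in the fit to all 48 libraries (0.119).

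CA3 and DG differed in 16 of 26 members, 10 higher in CA3, beside 19.6%, and 6 higher in DG, beside 16.9%. Pcdh10 was 6.62-fold higher in CA3, with 59.1, 104 and 138 CPM in CA3 (adjusted p = 8.39e-10), and Pcdh7 6.31-fold, with 93.7, 125 and 138 CPM against 3.14, 15.6 and 53.8 CPM (adjusted p = 1.46e-05). Pcdh17, Pcdh8 and Pcdh11x were higher in DG by 3.36-, 4.32- and 7.51-fold (adjusted p = 3.83e-08, 1.51e-07 and 0.00194). Also without overlap, Cdh10, Cdh11, Cdh24 and Pcdh9 were higher in CA3 and Pcdh19 in DG, while Cdh2, Cdh4, Cdh7 and Pcdh1 (CA3) and Cdh9 and Cdh13 (DG) were called with overlap. Cdh9 and Cdh13 were not called in the fit to all 48 libraries (adjusted p = 0.428 and 0.227). For Cdh4 the call follows the mean of logs, since ventral DG, at 11.7 CPM, lay above both CA3 populations.

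PV and SST interneurons differed in 5 of 26 members, 3 higher in SST cells, beside 1.89% of all genes, and 2 higher in PV cells, beside 1.62%. Cdh9 had 12.3, 19.3 and 13.9 CPM in PV and 84.9, 89.8 and 108 CPM in SST libraries, 6.25-fold higher in SST cells (log2 difference -2.64, SE 0.31, adjusted p = 0.00137). Cdh8 had 7.74, 17.2 and 29.4 CPM against 125, 125 and 231 CPM, 8.95-fold higher in SST cells (adjusted p = 0.00489). In both genes the PV libraries lay far below.

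Cdh13 was high in both classes, with 223, 208 and 111 CPM in PV and 440, 546 and 630 CPM in SST cells (3-fold, adjusted p = 0.0114). Cdh18 was higher in PV cells, with 42.0, 36.9 and 43.5 CPM against 9.50, 15.5 and 5.71 CPM (3.96-fold, adjusted p = 0.0349). Pcdh19 had 208, 189 and 287 CPM in PV and 113, 121 and 116 CPM in SST cells (1.94-fold, adjusted p = 0.046).

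Cdh18 lost its call without SST library 1 or any 1 PV library (adjusted p up to 0.131), and Pcdh19 without SST library 1 or 2, without any 1 PV library and with RLE scaling (adjusted p up to 0.216). In the fit to all 48 libraries Cdh13 and Cdh18 were not called (adjusted p = 0.395 and 0.0935), and with the replicate number as a block Pcdh19 was not (0.067). Sst itself was at 240 to 920 CPM in the PV libraries and 3590 to 6683 CPM in the SST libraries, and Pvalb at 304 to 368 and 1.57 to 54.5 CPM. Microglial markers summed to 28.0 to 68.2 CPM in SST and 0.196 to 2.69 CPM in PV libraries, and oligodendrocyte markers to 56.8 to 826 and 15.8 to 45.7 CPM. Of the CA3 markers, which summed to 81.6 to 203 CPM in SST and 16.8 to 46.2 CPM in PV libraries, Cpne4 averaged 108 and 7.57 CPM and Iyd had no read. The DG granule cell markers summed to 181 to 283 CPM in SST and 82 to 152 CPM in PV libraries, of which Stxbp6 averaged 215 and 117 CPM, while Prox1, Dsp, Glis3 and C1ql2 averaged at most 4.83 CPM. Reln, also a marker of Cajal-Retzius cells, averaged 1684 CPM in SST and 73.4 CPM in PV cells, with Trp73 and Lhx1 at most at 0.184 CPM in any of these libraries. The part of these in the differences was not tested.

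Interneurons, as the mean of PV and SST cells, differed from dorsal CA1 pyramidal cells in 20 of 26 members: 12 were higher in interneurons, beside 17.3% of all genes, and 8 in dorsal CA1, beside 15.4%. Cdh13, at 1.71, 0.775 and 1.14 CPM in dorsal CA1, was 263-fold higher in interneurons (log2 difference 8.04, SE 0.40, adjusted p = 2.18e-08). Pcdh20 went from 159 CPM to 3.31, 0.59 and 0.391 CPM in PV and 10.1, 3.99 and 6.89 CPM in SST cells, 49.5-fold lower (log2 difference -5.63, SE 0.52, adjusted p = 4.01e-06). In both genes the groups lay far apart.

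Pcdh18 had 32.6, 1.77 and 1.49 CPM in PV and 45.1, 71.1 and 16.8 CPM in SST cells, against 1 read in all dorsal CA1 libraries (adjusted p = 0.00039). The ratio of reads per library size had a 95% exact interval of 362 to 79830. PV library 1 stood apart from the other PV libraries.

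Pcdh15 had 5.74, 7.63 and 3.80 CPM in PV and 14.4, 8.44 and 36.6 CPM in SST cells, 155-fold higher than the 5 reads of dorsal CA1 (adjusted p = 2.64e-05). Pcdh11x had 65.0, 37.4 and 22.5 CPM in PV, 30.4, 28.4 and 34.0 CPM in SST and 6.19, 1.68 and 0 CPM in dorsal CA1 cells, 13.9-fold higher in interneurons (adjusted p = 0.00825). Cdh6 was 18.4-fold lower in interneurons (adjusted p = 0.00104), with 0.718, 1.48 and 8.84 CPM in PV and 1.15, 0.0918 and 0.394 CPM in SST cells.

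Cdh4, Cdh7, Cdh9, Cdh18, Cdh20, Cdh22, Pcdh7 and Pcdh8 were also called higher in interneurons, and Cdh2, Cdh8, Cdh10, Cdh11, Pcdh1 and Pcdh19 higher in dorsal CA1. For Cdh8 and Pcdh19 the interneuron classes lay on both sides or near dorsal CA1: Cdh8 was at 18.1 CPM in PV, 114 CPM in dorsal CA1 and 160 CPM in SST cells, and Pcdh19 at 228, 260 and 117 CPM. Without dorsal CA1 library 2 or 3, Cdh7, Cdh18 and Cdh20 lost their calls (adjusted p up to 0.0565, 0.082 and 0.0832), and Pcdh19 did without dorsal CA1 library 1 (0.0862). Cdh8 lost it without any dorsal CA1 library, SST library 1 or PV library 2 (up to 0.0735), Cdh22 without any library but PV 1 and 3 (up to 0.172), and Pcdh11x and Cdh22 with no filter on low counts (0.0908 and 0.109). Cdh18, Cdh20 and Cdh22 were also not called in the fit to all 48 libraries (adjusted p = 0.115, 0.0626 and 0.0837), nor was Cdh22 with the replicate number as a block (0.0611). The DG granule cell marker sum of 82 to 283 CPM in interneurons stood beside 0.135 to 0.182 CPM in dorsal CA1. Stxbp6 made up most of it, C1ql2 stayed at or below 0.492 CPM, and the part of such RNA in the levels of Cdh9, Cdh13, Pcdh8 and Pcdh11x was not tested. These comparisons share the dorsal CA1 libraries with the CA1 long axis.

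**Figure D5:**
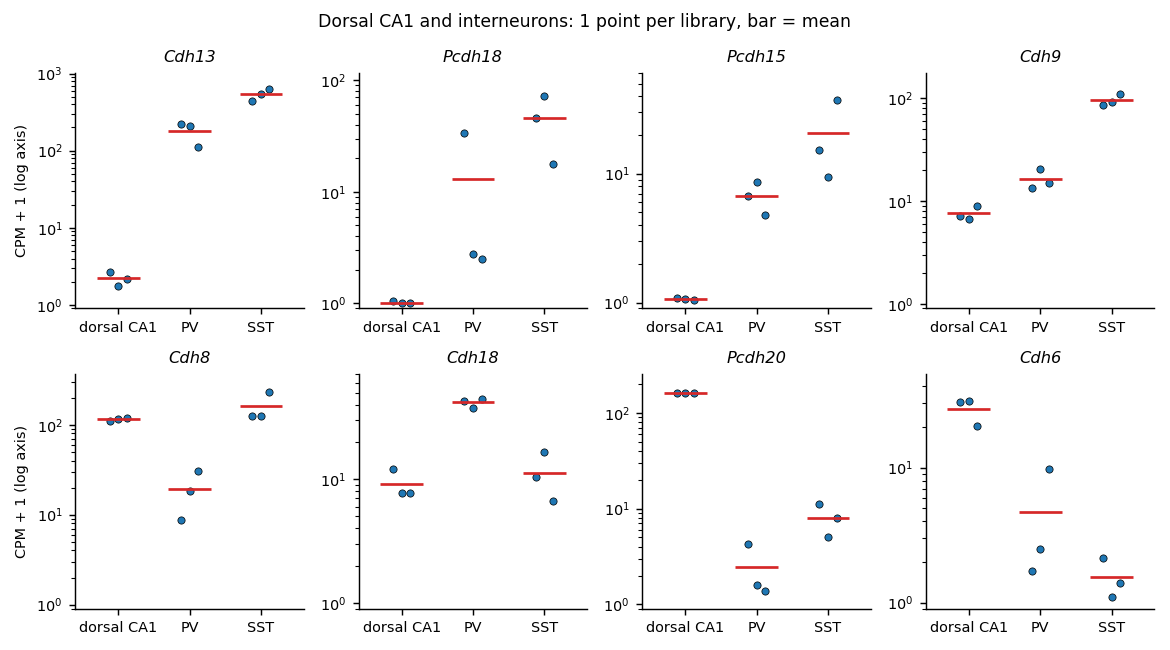
Level in each library, as CPM + 1 on a log axis, of 8 members in dorsal CA1 cells and in PV and SST interneurons, with bars at the means. Cdh13 and Pcdh18 are higher in all interneuron libraries, Pcdh20 is lower, Cdh9 and Cdh8 are high in SST cells and Cdh18 is high in PV cells.

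Genes that act with the cadherins were followed as 3 lists: 22 catenins and adherens junction adaptors, 25 other cadherin superfamily genes, and 24 clustered protocadherins. Between dorsal and ventral CA1, 2 of 19 tested adaptors were called higher dorsally and 5 ventrally, beside 7.17% and 7.95% of all genes. Magi2, a synaptic scaffold, went from 252 ± 14 to 155 ± 20.3 CPM (adjusted p = 0.00101), Pkp2 (plakophilin 2) from 82.9 ± 8.84 to 43.3 ± 4.12 CPM (adjusted p = 0.00149), and Ctnnd2 (delta-catenin), which binds classical cadherins, from 300.2 ± 9.84 to 451 ± 34.7 CPM (adjusted p = 0.00207). Pkp2 was nearly absent from interneurons, where 4 adaptors were called higher and 7 lower than in dorsal CA1 (21 tested, beside 17.3% and 15.4% of all genes): 0.975 ± 1.07 CPM over 6 libraries beside 82.9 CPM (log2 difference -7.26, SE 0.36, adjusted p = 2.36e-08).

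Among other superfamily genes, 1 of 10 tested was called higher in dorsal and 2 in ventral CA1, beside the same shares of all genes. The atypical cadherin Fat3 went from 922 ± 58.5 dorsally to 270 ± 23.0 CPM ventrally (adjusted p = 1.3e-06), while in CA3 it was higher ventrally (332 ± 21.1 and 692 ± 128 CPM, adjusted p = 3.35e-05). Its interaction between CA1 and CA3 was 2.79 on the log2 scale (SE 0.19, adjusted p = 1.67e-08). Fat1 rose from 0.262 ± 0.227 in dorsal to 80.5 ± 5.76 CPM in ventral DG (adjusted p = 9.1e-08), and Clstn2 was higher in PV than in SST interneurons (284 ± 57.5 and 17.9 ± 5.46 CPM, adjusted p = 0.000114).

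Of the 23 clustered protocadherins tested, 3 were called between dorsal and ventral CA1 (Pcdhb2, Pcdhb12 and Pcdhb19), all higher dorsally, beside 7.17% of all genes, and 8 between CA1 and DG, all higher in CA1, beside 17.4%. Between dorsal and ventral CA1 the median log2 differences of the 3 lists were -0.27 for adaptors, -0.26 for other superfamily genes and 0.84 for clustered protocadherins, beside -0.01 over all genes. Pcdha11 was the only alpha gene and Pcdhgc4 the only gamma gene in the list, and all others were of the beta cluster. The counts and the median therefore describe mainly beta genes. Genes of the alpha and of the gamma cluster share their last exons, so the values of Pcdha11 and Pcdhgc4 are uncertain. Beta genes are alike in sequence, so reads can be split between them and their single values are uncertain too. Nectin1, a binding partner in adherens junctions, was the 1 adaptor of 18 tested that was called across the cell layer, beside 0.886% of all genes higher in superficial cells, at 28.7 ± 5.58 CPM in superficial and 4.90 ± 0.877 CPM in deep CA1 (log2 difference 2.51, SE 0.40, adjusted p = 0.00579).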

How the data were processed

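RNA was measured by sequencing in 48 libraries of hand-sorted mouse hippocampal neurons, 3 from each of 16 populations named in the labels. The submitters' processing notes name TopHat2 2.0.6, HTSeq, Cuffdiff 2.1.1 and DESeq2, with no role for each. Raw counts of reads per gene come from a table deposited for the whole series, and whether strand was used in counting is not given in the sources used here. The deposited FPKM, in a Cuffdiff table per the file headers, were used only to compare genes with each other and to check which population was highest. The labels name builds NCBIM37 and mm9, while promoter sequences and gene order came from RefSeq tables of GRCm38, so only gene names were matched, for 32897 of 37620 Ensembl IDs. Spike-in and summary rows were left out: reads in no feature made up 20.9 to 46.9% and ambiguous reads 2.24 to 2.71%.

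Counts were filtered with filterByExpr, scaled by TMM and tested with the quasi-likelihood test of edgeR 4.0.16 in R 4.3.3, in 16 comparisons, with p-values adjusted by the Benjamini-Hochberg method over all genes tested. The 3 CA1 long-axis populations shared 1 fit, as did the 6 dorsal and ventral populations of CA1, CA3 and DG. PV, SST and dorsal CA1 libraries shared 1 for the interneuron and pyramidal comparison. Amygdala-projecting and accumbens-projecting cells were compared in a fit that also held the ventral CA1 libraries. Each other comparison was fitted on its own 2 groups. The functions were tested on simulated counts. Alternatives were RLE scaling, no filter, DESeq2 1.42.0, the replicate number as a block, leaving out each library in turn and 1 fit to all 48 libraries. The 3 libraries of a population differed by more than sampling noise (chi-square per degree of freedom at least 12.3).

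Members below 1 CPM everywhere are named once. Every other member is given with its lowest and highest population. Values per library are given for at most 6 members per comparison, those called without overlap and at 10 CPM or more in the higher group, in order of fold change, with a few others that the text describes in addition. At most 3 called genes are named per related list and comparison, and 5 most alike pairs. The members and lists were chosen with earlier results of these data known. Exact intervals and floors of 3 reads cover counting error only. 1 gene of the GABAergic marker list is not reported here and was left out of its sums. Sequences of the members' proteins are not used here.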

Additional observations from a re-analysis of the deposited data

Results flagged for a closer look

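The long-axis difference of 10 members differed between regions by the edgeR interaction test, given as the dorsal minus ventral log2 difference in CA1 minus that in the other region. Against CA3 these were 4 of 26 members tested, beside 3.52% of all genes, and against DG 9 of 26, beside 9.71%. Every alternative kept 1 of the 4 calls and 4 of the 9. Against CA3 the values were -3.09 for Pcdh8, -1.97 for Cdh9, -1.71 for Pcdh17 and 1.00 for Pcdh20. Against DG they were -3.43 for Pcdh8, -3.13 for Pcdh7, -1.76 for Pcdh17, -1.32 for Pcdh1, 0.75 for Pcdh9, 1.67 for Pcdh20, 3.91 for Cdh10, 4.78 for Cdh4 and 9.56 for Cdh6. Pcdh8, Pcdh17 and Pcdh20 thus had their interaction called with both regions, in comparisons that share the CA1 libraries. Of these, only Pcdh8 kept both calls in every alternative. The value of Cdh6 rests on dorsal DG libraries without a read.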

How the results depend on the processing

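Of 134 calls of members over all comparisons, 69 were kept in every alternative, and no direction reversed. In 1 fit to all 48 libraries 50 calls were lost, with no filter 11, with the replicate block 8, with RLE scaling 4 and with DESeq2 1. That fit called 7 members between dorsal and ventral CA1, 1 between dorsal and intermediate CA1, 0 between intermediate and ventral CA1, 1 across the cell layer, 2 between amygdala- and accumbens-projecting cells, 0 between postsubiculum-projecting and dorsal cells, 1 along CA3, 7 along DG and 1 in the interaction of CA1 with CA3. With no filter 3 members were called between proximal and distal CA1, 2 between amygdala- and accumbens-projecting cells and 8 between PV and SST interneurons, and with DESeq2 2, 2 and 10. Leaving out 1 library in turn gave counts of 3 to 6 between dorsal and intermediate CA1, 0 to 1 between proximal and distal CA1, 2 to 4 across the cell layer, 0 to 4 between postsubiculum-projecting and dorsal cells, 1 to 4 along CA3, 7 to 12 along DG and 3 to 6 between PV and SST interneurons. The cause of these changes was not tested, beyond fewer samples in the last case. The share of all genes called in each alternative, the replicate block among them, is not given here. These counts therefore do not set the members apart from other genes.

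Equal replicate numbers gave no clear sign of paired libraries: correlations of their deviations ran from -0.044 to 0.044. In 0 of 10 comparisons was every library most like its own number, the nearest being superficial against deep CA1 with 5 of 6 libraries. With 3 libraries per population this check cannot exclude pairing. With the replicate block the counts were 13 between dorsal and ventral CA1, 4 and 6 in its steps, 1 between proximal and distal cells, 4 across the cell layer, 0 and 4 in the projection comparisons, 4 along CA3, 11 along DG, 10, 18 and 16 between regions, 4 and 9 in the interactions, 6 between PV and SST cells and 19 between interneurons and dorsal CA1. Levels under the 3-read floor of 0.0899 to 0.55 CPM per library were not distinguished from 0.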
